A study of Sus scrofa with 16 samples.

Results

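Mitochondrial ribosomal proteins, encoded by the MRPL and MRPS genes of the nucleus, were examined in the whole pituitaries of 16 Złotnicka White gilts. Their genes were chosen by symbol alone, as every gene whose symbol in the deposited annotation begins with MRPL or MRPS and a number. The rule found 58 genes, and all 58 had at least 10 counts in 8 or more pigs, so that none was lost to the filter that left 13667 of the 25880 genes of the count table for testing. The gilts, of a native Polish breed in a conservation programme, were unrelated, came from different farms, were kept and fed alike at a test station and were slaughtered at about 100 kg, with an age of 180 days in the labels. The 8 pigs of the LFC group had low feed conversion and the 8 pigs of the HFC group had high feed conversion, with no treatment and no genetic change in either group. By the paper, the HFC pigs gained more slowly, were longer in the test, and had fatter hams and less meat in the carcass. These traits go with the groups, so their part in any difference cannot be told apart from that of feed conversion. The farms were not given for single pigs, so their part in any difference was not tested.

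The mitochondrial ribosome sits in the matrix of the organelle and makes only the proteins that the mitochondrial genome encodes, all of them parts of the respiratory chain and ATP synthase. Its RNAs are transcribed from mitochondrial DNA, while each of its proteins is encoded in the nucleus, translated in the cytosol and imported. Some of the proteins descend from those of bacterial ribosomes, and others have no bacterial relative. In a gland that makes and exports large amounts of peptide hormone, the respiratory chain supplies much of the ATP.

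Of the 58 proteins, 38 belong to the large and 20 to the small subunit, counting MRPS30 and MRPS18A with the large subunit, where they are found in spite of their names. By textbook knowledge 37 have a bacterial relative and 21 do not. The genes were spread over 17 chromosomes of Sscrofa11.1, with 7 each on chromosomes 2 and 12, and 2 of them (MRPL41 and MRPS2) lay on an unplaced scaffold. They were compact, with a median span of 9542 bases from start to end, against 29618 for the 10890 tested genes with a known span. The shortest was MRPL41 with 408 bases and the longest MRPL1 with 109125. The spans of 31 of them overlapped that of another gene in the RefSeq annotation of the same assembly. In libraries that did not keep the strand, reads from such shared bases cannot be assigned with certainty, and how many these were was not measured.

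All 58 genes were read in every pig, with 49 to 1212 counts per gene and pig, from libraries of 6010629 to 11794256 counts. Levels are given as CPM, the counts of each library brought to a common total with edgeR's TMM scaling, and they are not divided by transcript length, so they do not rank the genes by number of transcripts. The mean over all pigs ran from 8.89 CPM for MRPS28 to 101.2 CPM for MRPL28, with a median of 30.7 CPM. The high and low ends of this range held MRPL28, MRPL17 and MRPL12 on one side and MRPS28, MRPS30 and MRPL36 on the other. PRL and GH1, the prolactin and growth hormone genes that mark the tissue, averaged 29863 ± 13177 and 47406 ± 12108 CPM in the LFC group (SD, n = 8).

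The comparison of the groups asked whether the pituitary of pigs with high feed conversion held a different level of mitochondrial ribosomal protein transcripts. With HFC set over LFC, 57 of the 58 genes had a log2 fold change below 0, which means a lower level in the HFC pigs, while 48.9% of all genes tested had one. The median was -0.20 on the log2 scale, or 12.7% lower in the HFC pigs, against 0.01 for all genes tested. This direction was lost with 1 surrogate variable in the model, where 24 of the 58 were below 0, against 48.6% of all genes, and their median was 0.01. That variable itself went in part with the groups, as given below. The differences were small, from -0.38 for MRPS35 to 0.02 for MRPS2, with standard errors between 0.08 and 0.24, and no gene reached the 1.3-fold minimum of the study's thresholds. With an adjusted p limit of 0.05 and that minimum, 0 of the 58 genes were called, as were 0.0% of all genes, and the smallest adjusted p among the 58 was 0.389 (Benjamini-Hochberg adjustment of edgeR's quasi-likelihood test). DESeq2 also called 0 of the 58, against 0.212% of all genes, and limma voom called 0. DESeq2 was the study's tool, and the paper reports many more genes past these thresholds in this breed. Why the numbers of genes differ was not tested. For the pigs of this breed with low feed conversion, the paper links co-expressed genes with translation and the making of ribosomes. A weaker limit, called nominal here, was an unadjusted p of 0.05 or less. By edgeR, 10 of the 58 genes (17.2%) passed the nominal limit with higher levels in the LFC pigs, against 3.47% of all genes, and 0 with higher levels in the HFC pigs, against 8.01% of all genes. These 10 were MRPL18, MRPL3, MRPS35, MRPS23, MRPL21, MRPL38, MRPL48, MRPL9, MRPL1 and MRPS25, of which the last 5 are named only to complete the count. DESeq2 passed 11 (4.78% of all genes) and voom 19 (7.61% of all genes) in the LFC direction. With total library size in place of TMM the number was 18, against 5.52% of all genes, and with the replicate number as a block it was 6, against 2.85%. The CPM of the 2 groups overlapped for each of the 58 genes, and groups that did not overlap were found for 0.0293% of all genes. In bulk tissue, fewer cells of a type rich in these transcripts and less of the transcripts per cell cannot be told apart.

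**Figure D1:**
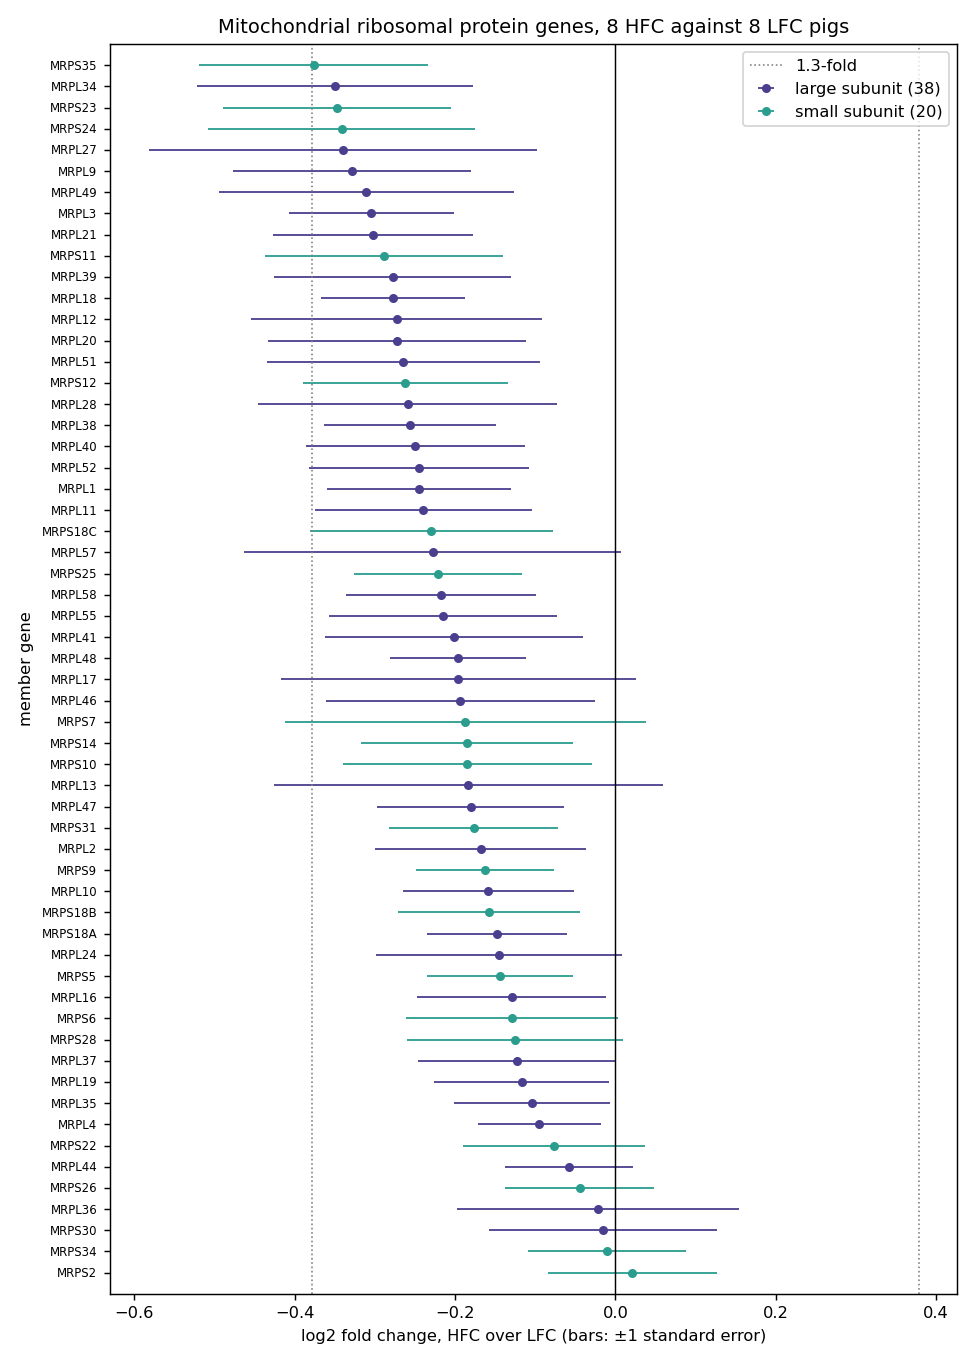
Log2 fold change (x axis) of each of the 58 mitochondrial ribosomal protein genes (y axis), HFC over LFC pigs, with bars of 1 standard error, coloured by subunit. All but MRPS2 (which was below 0 with upper-quartile scaling) lie to the left of 0, and none lies beyond the dotted lines of a 1.3-fold change.

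Genes of the large subunit encode proteins around the peptidyl transferase centre, in the stalk that receives translation factors and along the tunnel through which the new chain leaves. All 38 had a log2 fold change below 0, with a median of -0.22, and 7 of them passed the nominal limit in the LFC direction, against 3.47% of all genes. The smallest p of all was that of MRPL18 (ENSSSCG00000004047, chromosome 1, 7579238 to 7590015), a protein of the central protuberance. Its lowest, median and highest values were 35.5, 42.9 and 48.1 CPM in the LFC pigs and 27.7, 35.3 and 41.3 CPM in the HFC pigs. All 8 HFC pigs were below the median of the LFC pigs, although the HFC maximum passed the LFC minimum. The log2 fold change was -0.28 ± 0.09 (SE), with an unadjusted p of 0.00622 and a Benjamini-Hochberg adjusted p of 0.389 in edgeR's quasi-likelihood test.

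MRPL3 (ENSSSCG00000011179, chromosome 13, 984993 to 1024507) lies near the peptidyl transferase centre, and its loss of function in humans causes a mitochondrial disease of the heart. It had 55.9, 64.8 and 87.0 CPM as the lowest, median and highest values in the LFC pigs and 47.9, 53.4 and 68.4 CPM in the HFC pigs. In 7 of the 8 HFC pigs the level was below the LFC median, with HFC replicate 5 the exception. The log2 fold change was -0.30 ± 0.10 (SE), and the unadjusted p of 0.00816 in edgeR's quasi-likelihood test became 0.397 after Benjamini-Hochberg adjustment. MRPL21, a large subunit protein of bacterial descent, had 16.04, 19.8 and 27.0 CPM in the LFC pigs and 13.1, 16.3 and 23.0 CPM in the HFC pigs. In 7 of the 8 HFC pigs it was under the median of the LFC group, and the difference was -0.30 ± 0.12 (log2 fold change ± SE).

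Among the proteins of the factor-binding stalk, MRPL12, which has also been described as a partner of the mitochondrial RNA polymerase, was among the genes with the most counts per library. It had 56.0, 86.0 and 129 CPM as the lowest, median and highest values in the LFC pigs and 54.7, 66.0 and 124 CPM in the HFC pigs. The highest values were those of LFC replicate 6, HFC replicate 5 and LFC replicate 4, and the group ranges covered each other almost wholly. Its log2 fold change was -0.27 ± 0.18 (SE). MRPL10, which anchors the stalk, and MRPL11, at its base, differed by -0.16 ± 0.11 and -0.24 ± 0.14 (log2 fold change ± SE). For MRPL2, at the peptidyl transferase centre, the difference was -0.17 ± 0.13, and for MRPL24, near the exit of the tunnel, -0.15 ± 0.15. The unadjusted p of these 5 genes lay between 0.0928 and 0.356 in edgeR's test.

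MRPL17 and MRPL28, the remaining genes with the most counts, were also among those that varied most between pigs. MRPL17, whose whole span is nearly covered by a long non-coding RNA gene (94.3%), had 59.4, 86.0 and 182 CPM in the LFC pigs and 64.98, 76.5 and 164 CPM in the HFC pigs. The values of 182 and 164 CPM belonged to LFC replicate 4 and HFC replicate 5, and without LFC replicate 4 the log2 fold change went from -0.20 to -0.01. MRPL28, of which 62.9% overlapped TMEM8A, had 77.9, 100.1 and 176 CPM in the LFC pigs and 69.9, 82.4 and 158 CPM in the HFC pigs, a difference of -0.26 ± 0.19. Both genes were thus highest in single pigs of either group, and the difference between groups was smaller than the SD within each group.

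Some large subunit proteins have the fold or activity of an enzyme, or have been described in other processes. MRPL44, with a fold of the ribonuclease III family, was the most even of the 58 genes, with an SD of 0.11 in log2 level over the 16 pigs. Its lowest, median and highest values were 17.1, 19.2 and 21.6 CPM in the LFC pigs and 15.99, 19.0 and 20.6 CPM in the HFC pigs, and the log2 fold change was -0.06 ± 0.08 (SE). MRPL58, a peptidyl-tRNA hydrolase that frees stalled ribosomes, had a log2 fold change of -0.22 ± 0.12 (SE), and 7 of the 8 HFC pigs were below the LFC median. MRPL41, a protein also described in apoptosis, had -0.20 ± 0.16. MRPL36 and MRPS30, among the genes with the lowest levels, had -0.02 ± 0.18 and -0.02 ± 0.14.

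Genes of the small subunit encode proteins around the decoding centre and the path of the messenger RNA. Of these 20 genes, 19 had a log2 fold change below 0, with a median of -0.18, and 3 passed the nominal limit in the LFC direction, against the same 3.47%. MRPS35 (ENSSSCG00000000547, chromosome 5, 45973072 to 46023094), without a bacterial relative, had 15.0, 18.7 and 27.3 CPM as the lowest, median and highest values in the LFC pigs and 11.5, 14.5 and 21.7 CPM in the HFC pigs. The log2 fold change of -0.38 ± 0.14 (SE; unadjusted p = 0.0168 in edgeR's test) was the lowest of the 58, and 7 of the 8 HFC pigs were below the LFC median. MRPS23 (ENSSSCG00000035193, chromosome 12, 34122209 to 34132840), also without a bacterial relative, had 13.1, 16.9 and 27.0 CPM in the LFC pigs and 12.1, 13.1 and 16.7 CPM in the HFC pigs. All 8 HFC pigs were below the LFC median and within a narrow range, and the log2 fold change was -0.35 ± 0.14 (SE).

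At the decoding centre, MRPS12 had 15.0, 19.7 and 28.9 CPM in the LFC pigs and 15.6, 17.1 and 20.7 CPM in the HFC pigs, a difference of -0.26 ± 0.13 (log2 fold change ± SE). MRPS7, a protein of the head, had -0.19 ± 0.22, and its levels of 55.3 CPM in LFC replicate 4 and 56.5 CPM in HFC replicate 5 were the highest of either group. MRPS5, of the body, had -0.14 ± 0.09. The 3 relatives of bacterial S18, of which MRPS18A sits in the large subunit, had -0.15 ± 0.09 for MRPS18A, -0.16 ± 0.11 for MRPS18B and -0.23 ± 0.15 for MRPS18C. MRPS22 and MRPS34, both genes of human respiratory chain disease, had -0.08 ± 0.11 and -0.01 ± 0.10. The span of MRPS34 overlapped NME3 by 50.4%, and only 2 of the 8 HFC pigs were below its LFC median. MRPS7 overlapped GGA3 by 52.2% and MIF4GD by 51.8% of its span, MRPS18C overlapped ABRAXAS1 by 43.2% and MRPS22 overlapped COPB2 by 38.4%. MRPS28, the gene with the lowest level, had -0.12 ± 0.13.

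MRPS2 was the 1 gene with a log2 fold change above 0, and with upper-quartile scaling it was below 0 as well (-0.016). It had 17.9, 22.6 and 27.8 CPM as the lowest, median and highest values in the LFC pigs and 18.4, 23.7 and 27.5 CPM in the HFC pigs. The value of 0.02 was smaller than its SE of 0.11, and the groups covered the same range. It was highest in LFC replicate 6 but had 22.9 CPM in LFC replicate 4 and 20.1 CPM in HFC replicate 5, pigs in which most of the genes were high. Whether MRPS2 differed from the other genes was not tested.

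**Figure D2:**
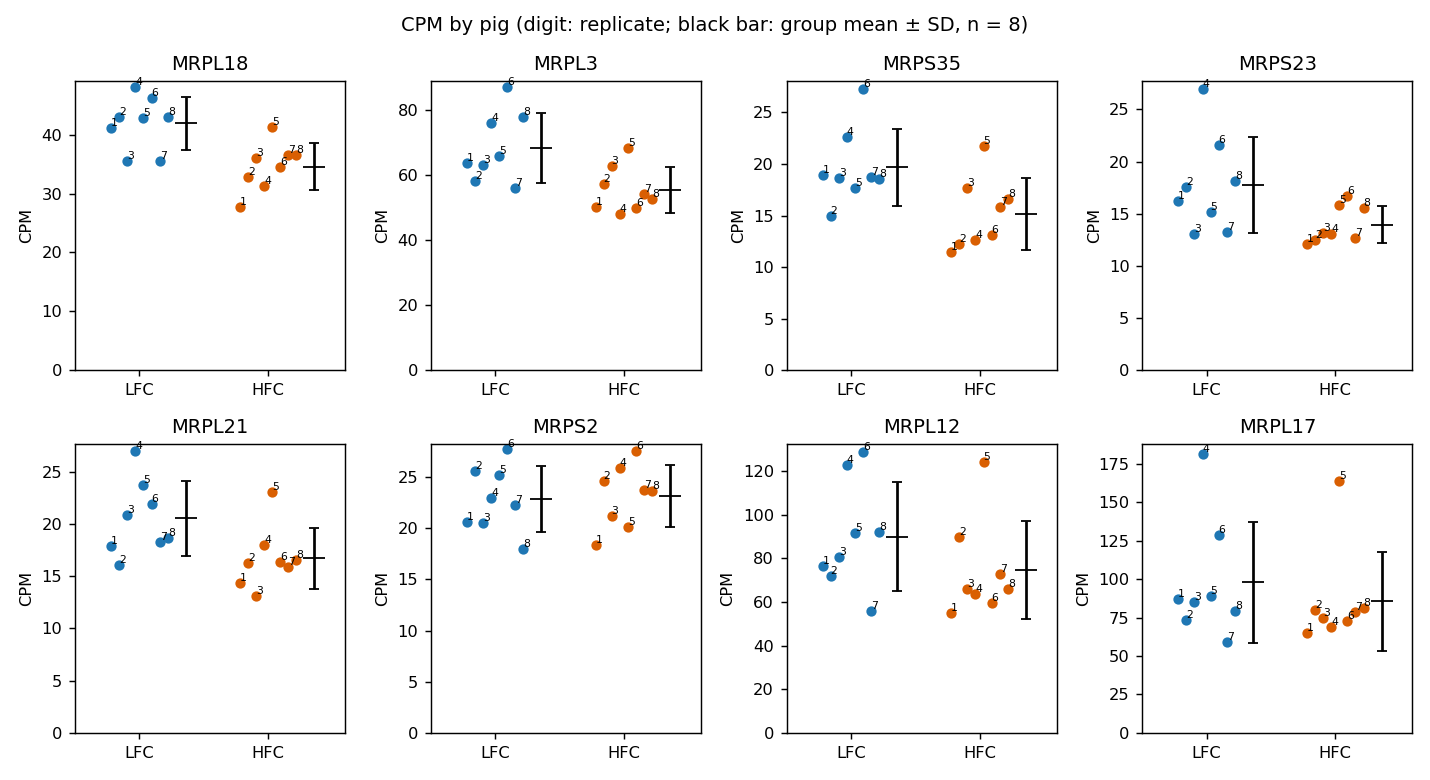
CPM (y axis) of the 5 genes with the smallest p, of MRPS2 and of 2 genes with the most counts, MRPL12 and MRPL17, in each pig of the LFC and HFC groups (x axis), with the replicate number beside each point and the mean ± SD (n = 8) in black. The HFC points of MRPL18 lie mostly under the LFC points, and LFC replicates 4 and 6 and HFC replicate 5 stand highest for MRPL12 and MRPL17.

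The difference between groups was laid over a larger and shared movement between pigs. The first principal component of the log2(CPM + 1) values of the 58 genes held 75.7% of their variance over the 16 pigs, and 74.3% when each gene was centred on its group mean, against 29.5% and 26.6% for all genes tested. For the 63 cytosolic ribosomal protein genes it held 87.2% and 86.7%, and for the 13 mitochondrially encoded protein genes 68.0% and 60.4%. A shared movement was thus not particular to the 58 genes. The highest of the 16 values was found in LFC replicate 4 for 27 genes, in LFC replicate 6 for 17 and in HFC replicate 5 for 12, which left only MRPL4 and MRPS26, both highest in HFC replicate 6. At the other end, HFC replicate 1 had the lowest value for 24 genes and HFC replicate 4 for 17. LFC replicates 4 and 6 were each above the median of the 16 pigs at 56 of the 58 genes, HFC replicate 5 at 54, HFC replicate 4 at 4 and HFC replicate 1 at 1. The summed level of the 58 genes averaged 2266 ± 432 CPM in the LFC and 1966 ± 361 CPM in the HFC group (SD, n = 8 each). The lowest, median and highest sums were 1812, 2144 and 3025 CPM in the LFC pigs and 1633, 1913 and 2795 CPM in the HFC pigs, so that 1 HFC pig lay far inside the upper LFC range and 2 LFC pigs, replicates 2 and 7, lay under the HFC median.

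**Figure D3:**
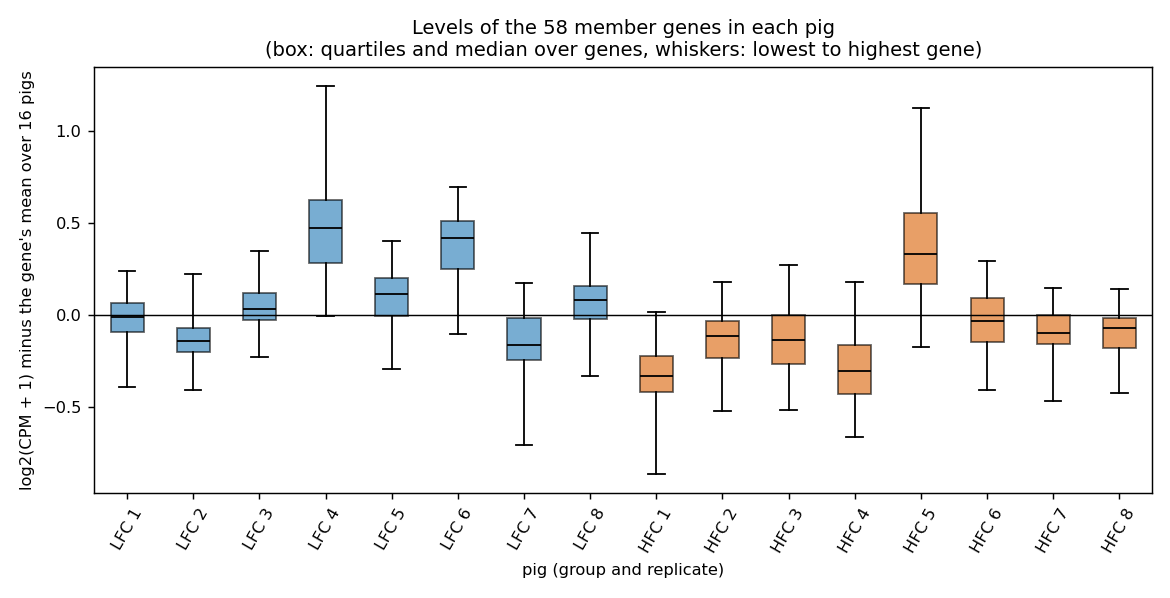
Deviation of the 58 genes from their own mean over all pigs, in log2(CPM + 1) (y axis), for each LFC and HFC pig (x axis), with boxes of quartiles and median and whiskers to the lowest and highest gene. LFC replicates 4 and 6 and HFC replicate 5 sit above 0 at nearly all genes, and HFC replicates 1 and 4 below.

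The number of genes past the nominal limit depended on single pigs. Without HFC replicate 5 it was 36 of 58 (62.1%), against 11.9% of all genes, all 10 genes of the full comparison were among them, and the median log2 fold change was -0.30. It was 4 without LFC replicate 4 (2.26% of all genes), 5 without LFC replicate 6 (2.33%) and 6 without HFC replicate 1 (3.08%). It was 19 without LFC replicate 2 (6.48%) and 20 without LFC replicate 7 (6.0%). In none of these fits was any of the 58 genes called, the smallest Benjamini-Hochberg adjusted p in edgeR's test being 0.0926 without HFC replicate 5. The number of genes with a log2 fold change below 0 stayed between 54 and 58 whichever pig was left out. In the fit with 1 surrogate variable, 1 of the 58 passed the nominal limit in the LFC direction, against 1.85% of all genes, and 2 in the HFC direction, against 2.91%. The surrogate variable, estimated from all genes, had its highest values in the same 3 pigs, 0.49 in LFC replicate 4, 0.48 in LFC replicate 6 and 0.39 in HFC replicate 5. It was below 0 in every other HFC pig, and lowest in HFC replicates 1 and 4, at -0.31 in each. As it went in part with the groups, this fit cannot separate the difference between groups from the shared movement.

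The same 3 pigs were set apart by the relation between the level of a gene and its length. The slope of each pig's log2 levels, relative to the mean of all pigs, on the log2 span of the 10890 genes with a known span was -0.084 in LFC replicate 4, -0.086 in LFC replicate 6 and -0.067 in HFC replicate 5, and between -0.021 and 0.066 in the others. Short genes thus had relatively more counts in these 3 libraries, and the 2 steepest positive slopes, 0.066 and 0.042, were those of HFC replicates 1 and 4. By group the slope was -0.017 ± 0.046 for LFC and 0.017 ± 0.039 for HFC (SD, n = 8 each). When the levels of each pig were corrected for gene span, 53 of the 58 genes kept a log2 fold change below 0, against 52.0% of the 10890 genes, and the median was -0.17. Then 13 of the 58 passed the nominal limit in the LFC direction, against 5.09% of the 10890. The mean deviation of the 58 genes was 0.48 in LFC replicate 4, 0.40 in LFC replicate 6 and 0.37 in HFC replicate 5 before the correction, and 0.37, 0.30 and 0.28 after it. Without these 3 pigs, a choice made after the data were seen, 54 of the 58 genes were below 0, against 50.3% of all genes, with a median of -0.17, and 16 passed the nominal limit in the LFC direction, against 6.74%. Of those 16, 7 were among the 10 of the full comparison. RNA quality of single pigs was not given beyond an integrity number over 7, and its part in the slope was not tested.

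**Figure D4:**
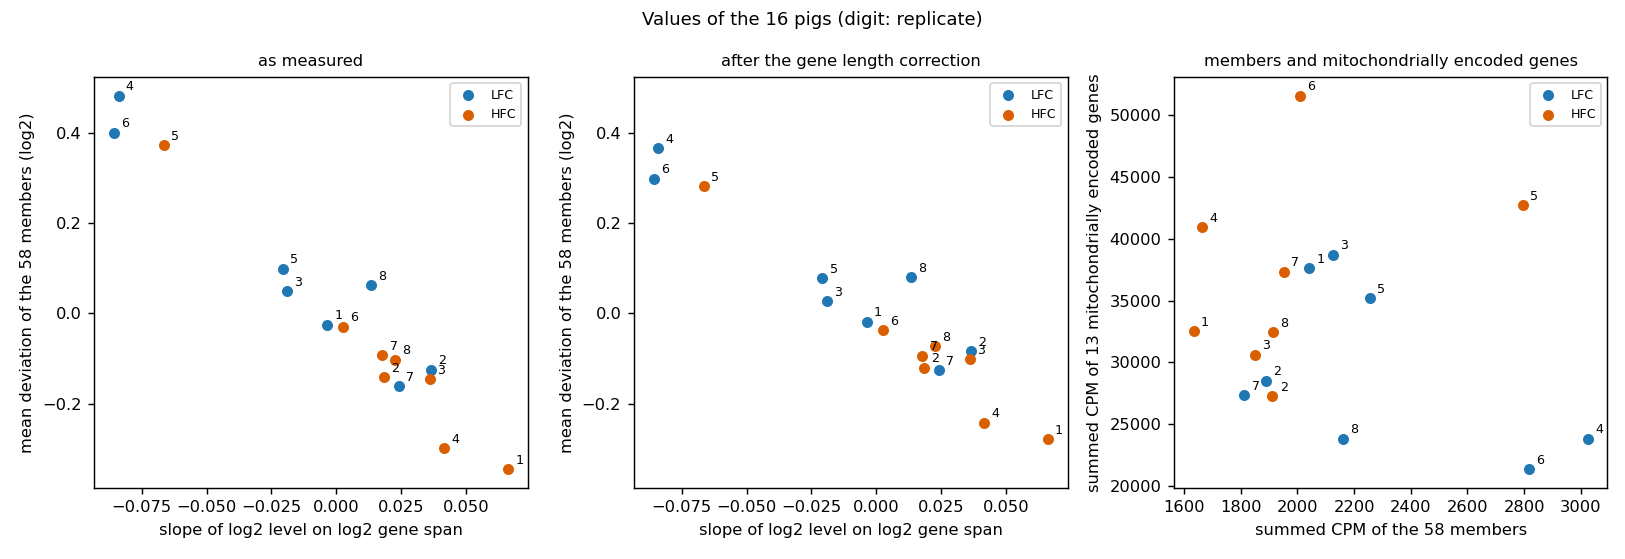
Mean log2 deviation of the 58 genes (y axis) against the slope of log2 level on log2 gene span (x axis) in the 16 pigs, as measured (left) and after the length correction (middle), and summed CPM of the 13 mitochondrially encoded protein genes (y axis) against summed CPM of the 58 genes (x axis, right), with replicate numbers beside the points. The 3 pigs with the lowest slopes have the highest values in the left and middle panels, and in the right panel LFC replicates 4 and 6 join high sums of the 58 genes with low sums of the mitochondrial genes.

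The genes varied unequally around this movement. MRPL27, MRPL57, MRPL13 and MRPS7, named after their values were seen, had the widest spread over the 16 pigs, with SDs of the log2 level between 0.46 and 0.51. MRPL27 had 85.0 CPM in LFC replicate 4 and 64.5 CPM in HFC replicate 5 but 23.6 CPM in HFC replicate 4. MRPL13 had 32.9 CPM in HFC replicate 5 and 7.94 CPM in HFC replicate 1. MRPL44 and MRPL4 were the most even, with SDs of 0.11 and 0.13. For the 58 genes the median SD within a group was 0.26, near the 0.25 of the 8828 genes in the same range of levels.

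Mitochondrial ribosomal protein genes that the deposited annotation leaves without a symbol, and that were named by their gene identifiers, gave a second set of 11 genes outside the rule. They were MRPL15, MRPL22, MRPL30, MRPL33, MRPL43, MRPL45, MRPL50, MRPL54, MRPS15, MRPS27 and MRPS33. All 11 had a log2 fold change below 0, against 48.9% of all genes tested. The values ran from -0.32 for MRPL54 to -0.01 for MRPS27, with a median of -0.20. MRPS15 (-0.24 ± 0.09) and MRPL50 (-0.31 ± 0.14) passed the nominal limit in the LFC direction, 2 of the 11, against 3.47% of all genes. These genes were read from the same libraries as the 58 and share their pigs, so they are not a repeat of the comparison.

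Proteins in or bound to the ribosome that carry other symbols gave 6 tested genes, with a median log2 fold change of -0.14. Of these, 5 were below 0, against 48.9% of all genes. GADD45GIP1, a large subunit protein, averaged 19.2 ± 6.56 CPM in the LFC and 13.6 ± 6.04 CPM in the HFC group (SD, n = 8 each). Its log2 fold change was -0.50 ± 0.23 (SE), and it was the only one of the 6 past the nominal limit, against 3.47% of all genes. DAP3 and AURKAIP1 of the small subunit, named after their values were seen, had -0.14 ± 0.10 and -0.24 ± 0.16, and PTCD3, also of the small subunit, had 0.06 ± 0.08.

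Factors that assemble the ribosome and modify its RNA numbered 22, with a median log2 fold change of -0.10. Below 0 were 16 of them, against 48.9% of all genes. Past the nominal limit were 2 of them, YBEY and MPV17L2, both higher in the LFC pigs, against 3.47% of all genes. YBEY, an endoribonuclease of ribosomal RNA maturation, averaged 69.2 ± 9.46 CPM in the LFC and 57.7 ± 4.24 CPM in the HFC group (SD, n = 8 each), with a log2 fold change of -0.26 ± 0.08 (SE). Among 13 initiation, elongation, release and messenger RNA factors of the organelle, 11 were below 0, against the same 48.9%, with a median of -0.10. TSFM, the exchange factor for elongation factor Tu, was the only one past the nominal limit, at -0.30 ± 0.13, against the same 3.47%.

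The 20 mitochondrial aminoacyl-tRNA synthetases and amidotransferase subunits were split evenly, 10 below and 10 above 0, with a median of 0.01. YARS2, the tyrosyl-tRNA synthetase, averaged 10.7 ± 2.34 CPM in the LFC and 7.54 ± 0.789 CPM in the HFC group (SD, n = 8 each), a log2 fold change of -0.50 ± 0.14 (SE). AARS2, the alanyl-tRNA synthetase, passed the nominal limit in the HFC direction at 0.42 ± 0.15. Among 14 genes of mitochondrial transcription and its regulators, 9 were below 0, with a median of -0.11. Past the nominal limit were ESRRA at -0.31 ± 0.12, YY1 at 0.17 ± 0.07 and PPRC1. PPRC1, a coactivator related to PGC-1 alpha, averaged 19.9 ± 3.46 CPM in the LFC and 28.7 ± 5.37 CPM in the HFC group (SD, n = 8 each), a log2 fold change of 0.53 ± 0.13 (SE). Its adjusted p was 0.355 with edgeR's quasi-likelihood test and 0.0451 with DESeq2. In the list of general mitochondrial content, 11 of 16 genes were below 0, with a median of -0.10. CYCS, cytochrome c, was the only one past the nominal limit, at -0.34 ± 0.14. For these 3 lists the shares of all genes tested were 48.9% below 0, and 3.47% and 8.01% past the nominal limit in the LFC and HFC direction.

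Transcripts of the proteins that the mitochondrial ribosome makes had the opposite sign, and the proteins were not measured. All 13 mitochondrially encoded protein genes had a log2 fold change above 0, with a median of 0.41, while 48.9% of all genes were below 0. ND1, ND2, ND5, ND6, ATP8 and CYTB, 6 of the 13, passed the nominal limit in the HFC direction, against 8.01% of all genes. ATP8 varied widely in the HFC group, with 154 ± 159 CPM against 61.1 ± 13.0 CPM in the LFC group (SD, n = 8 each). ND5, a subunit of complex I, averaged 534 ± 156 CPM in the LFC and 1025 ± 278 CPM in the HFC group (SD, n = 8 each). Its log2 fold change was 0.94 ± 0.20 (SE), with an adjusted p of 0.318 in edgeR's quasi-likelihood test and 0.00876 in DESeq2. The summed level of the 13 genes was 13.6 ± 4.29 times that of the 58 ribosomal protein genes in the LFC group and 19.0 ± 4.21 times in the HFC group (SD, n = 8 each). The lowest, median and highest of these ratios were 7.58, 15.1 and 18.4 for LFC and 14.2, 18.0 and 25.7 for HFC. The lowest values were those of LFC replicates 6 and 4, and HFC replicate 5, high in the 58 genes, had a ratio of 15.3, inside the range of both groups.

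Protein genes of the cytosolic ribosome, the translation machinery for nuclear messenger RNA, had the same sign as the 58. All 63 tested had a log2 fold change below 0, against 48.9% of all genes, with a median of -0.27. Only RPS3 of the 63 passed the nominal limit, at -0.46 ± 0.19, against 3.47% of all genes in the LFC direction. Their summed level was 103798 CPM in LFC replicate 4, 96726 CPM in HFC replicate 5 and 74382 CPM in LFC replicate 6, and at most 57397 CPM in every other pig. The pigs with the highest sums of the 58 genes were thus those with the highest sums here. The difference between the mitochondrial and the cytosolic list was not tested.

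**Figure D5:**
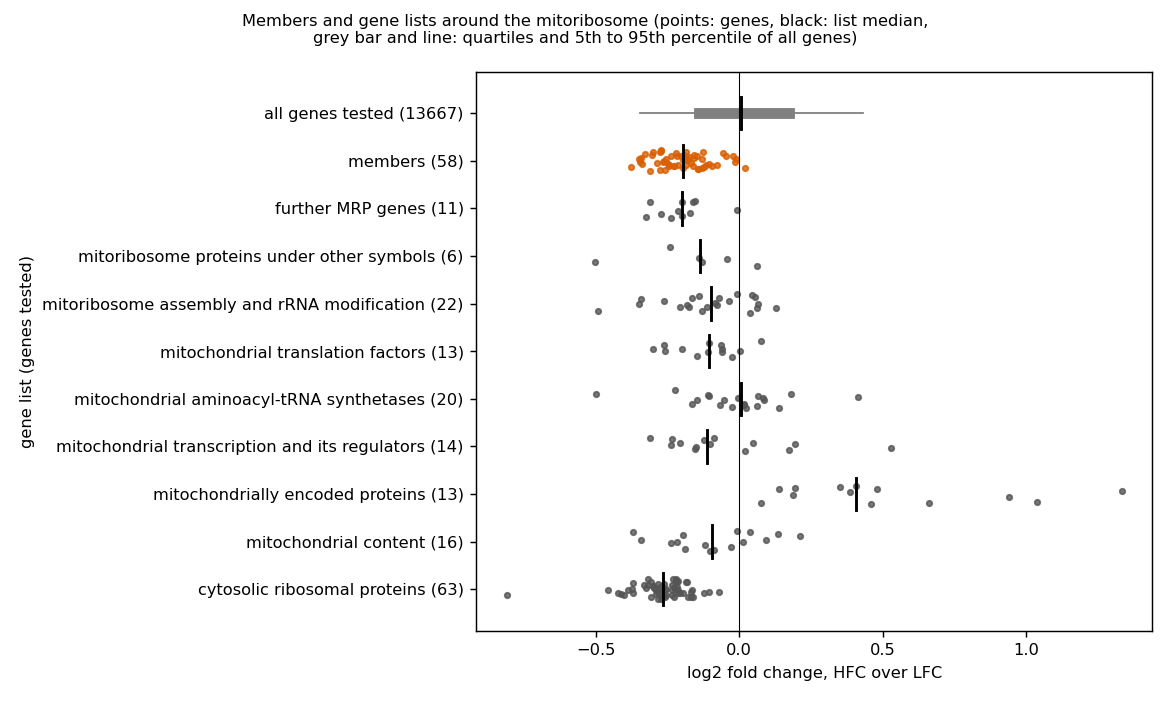
Log2 fold changes, HFC over LFC (x axis), of the 58 genes and of lists of genes around the mitochondrial ribosome (y axis, with the number of genes tested), each point a gene and each black bar a median, with the 58 genes as members and all genes drawn by quartiles (grey bar) and their 5th to 95th percentile (grey line). The medians are -0.20 for the 58 genes, -0.27 for the cytosolic ribosomal proteins and 0.41 for the 13 mitochondrially encoded proteins.

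Some markers of the cells of the gland passed the nominal limit, and their part in the levels of the 58 genes was not tested. None was called by edgeR, the smallest Benjamini-Hochberg adjusted p in its quasi-likelihood test being 0.318. Over all genes tested, 48.9% were below 0, and 3.47% passed the nominal limit in the LFC and 8.01% in the HFC direction. PRL of the lactotrophs had a log2 fold change of 1.29 ± 0.27, TBX19 of the corticotrophs and melanotrophs -0.51 ± 0.20 and PCSK2 of the same list -1.27 ± 0.48, and all 3 passed the nominal limit. PAX7, also of that list, had -0.82 ± 0.47 and did not pass, and POMC was not found by name. The 4 gonadotroph and thyrotroph genes were split, with CGA at -0.55 ± 0.26 past the limit, and TSHB at -1.02 ± 0.56, FSHB at 0.14 ± 0.44 and TRHR at 0.40 ± 0.24 not past it. None of the 2 somatotroph genes and 4 lineage factors tested passed. Among genes of other cells, all 5 endothelial genes were above 0, and VWF and CDH5 passed the limit in the HFC direction. Of 5 fibroblast genes 3 were above and 2 below 0, and COL1A2, at 0.91 ± 0.19, was the only one past it. All 3 liver genes were below 0, with ALB past the limit in the LFC direction. ALB was low and uneven, with 6.77 ± 10.7 CPM in the LFC and 2.20 ± 1.81 CPM in the HFC group (SD, n = 8 each). No macrophage, blood or neuronal gene tested passed. GFAP of glia averaged 292 ± 525.8 CPM in the LFC and 202 ± 512 CPM in the HFC group, and MBP of myelin 607 ± 949 and 247 ± 357 CPM (SD, n = 8 each). Both varied widely within each group, and with log2 fold changes of -0.53 ± 1.29 and -1.30 ± 0.76 neither passed the limit.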

How the data were processed

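Libraries were made from RNA of whole pituitaries with the TruSeq RNA v2 kit, which did not keep the strand, and read from one end in 4 technical runs per pig. The authors trimmed the reads and aligned them to Sscrofa11.1 with RSEM and STAR, Bowtie 2 being named as well, and the deposited table holds whole-number counts without normalization for 25880 Ensembl genes and 16 pigs, 6010629 to 11794256 per pig. The deposited annotation gave symbols, chromosomes and spans in bases. The columns of the authors' comparison (group means, fold changes and p-values) were not used. Groups were taken from labels whose field is called shear force but whose values are low and high FCR.

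The 13667 genes with at least 10 counts in 8 or more pigs were scaled by TMM and tested with the quasi-likelihood method of edgeR 4.0.16 under R 4.3.3, with p-values adjusted over all of them by Benjamini-Hochberg. A gene was called when its adjusted p was 0.05 or less and its fold change 1.3 or more. Standard errors were taken from the F statistic. Symbols came from the deposited annotation (9548 genes tested) or a table of gene identifiers (2845), and 1274 had none. Named were the 5 genes of smallest p per direction (only 1 was higher in HFC), the 3 with the highest and the lowest level, those with a well-known part in the ribosome, and the first by p of each list. The genes and lists were chosen with earlier results of these data known, and no list was tested as a set. The result of 1 marker gene is not reported here. Figures used matplotlib 3.10.9 and Python 3.11.15.

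The alternatives were DESeq2 1.42.0, voom of limma 3.58.1 with quality weights per sample, scaling by RLE, by upper quartile or by library total, other filters, a replicate block, a correction for gene span by lowess in each pig, 1 surrogate variable of sva 3.50.0, no fold change minimum, and each pig left out. On simulated data of 13667 genes for the HFC against LFC comparison, edgeR recovered 76 of 100 genes changed 2-fold and 32 of 100 changed 1.5-fold. DESeq2 recovered 83 and 46 of them. Of the unchanged genes, edgeR called 2 and DESeq2 16. The genes were simulated independently, without the shared movement between pigs, so these numbers need not hold for the real data. Counts of pigs within a group differed by more than sampling noise, with a chi-square per degree of freedom of 11.9 to 91.7 between pairs.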

Additional observations from a re-analysis of the deposited data

Results flagged for a closer look

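In groups of 8 pigs, a value was set aside for a closer look when its gap to the nearest other pig, divided by the range of the group, exceeded 0.526 (Dixon's 95% limit). Chance gives about 1 such group in 20 if the values are normally distributed, which was not checked for these CPM. Of the 72 groups examined, 17 had such a value, 13 of them in HFC replicate 5. Each flagged value was the highest of its group. As the genes share pigs, these are not separate events. In that pig the summed level of the 58 genes was 2795 CPM, and the single genes above the limit were MRPL17 (164 CPM), MRPL28 (158 CPM), MRPL24 (82.0 CPM), MRPL10 (57.2 CPM), MRPS7 (56.5 CPM), MRPL41 (44.2 CPM), MRPS22 (40.1 CPM), MRPL58 (36.8 CPM) and MRPS5 (25.8 CPM). Of the genes outside the 58, GADD45GIP1 (28.1 CPM), CYCS (136 CPM) and RPS3 (2558 CPM) were above the limit in HFC replicate 5. In LFC replicate 4 they were MRPS18C (29.5 CPM) and TSFM (53.7 CPM), in LFC replicate 6 YBEY (91.5 CPM), and in HFC replicate 3 YARS2 (9.37 CPM). HFC replicate 5 had the smallest library, with 6010629 counts, and the third lowest slope on gene length.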

How the results depend on the processing

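Under DESeq2, voom, RLE, upper-quartile and total library scaling, 3 other filters, the replicate block and the gene length correction, 53 to 58 of the 58 genes stayed below 0, with medians between -0.23 and -0.17, and 0 were called. The genes higher in the LFC pigs at an unadjusted p of at most 0.05, 10 in the main comparison, numbered 19 with voom, 18 with total library size, 6 with the replicate block and 16 without the 3 pigs of lowest length slope, and with each pig left out 4 to 36, with medians of -0.30 to -0.14. With 1 surrogate variable, 24 genes were below 0, the median was 0.011, and 1 gene was higher in the LFC and 2 in the HFC pigs at that threshold. Over all genes, DESeq2 called 29 and edgeR 0. On the simulated data, DESeq2 called 16 unchanged genes and edgeR 2. Genes were drawn independently there, so this does not give the share of false calls among the 29. PPRC1 and ND5, outside the 58, passed the thresholds in DESeq2, with log2 fold changes of 0.52 and 0.93.

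The replicate numbers did not pair the pigs, as the deviations of same-numbered pigs correlated between -0.34 and 0.37 and 0 of 8 numbers had their best correlation within the number. The block leaves fewer degrees of freedom.

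Signs turned with the surrogate variable for MRPS28 (0.021), MRPS30 (0.188), MRPL36 (0.268), MRPL12 (0.071), MRPL17 (0.249), MRPL28 (0.0995), MRPL2 (0.056), MRPL10 (0.032), MRPL11 (0.00484), MRPL24 (0.142), MRPL41 (0.105), MRPL44 (0.0207), MRPS7 (0.258), MRPS18B (0.00220), MRPS22 (0.024) and MRPS34 (0.152). They also turned for MRPS2 with upper-quartile scaling (-0.016), for MRPS30 (0.040) and MRPS34 (0.051) with voom, for MRPS30 (0.00461) and MRPS34 (0.00103) with the replicate block, for MRPL36 (0.095), MRPL44 (0.000504) and MRPS34 (0.0959) with the length correction, and for MRPS30 (0.080), MRPL36 (0.038) and MRPS34 (0.087) without the 3 pigs. With single pigs left out, MRPS2 ran from -0.036 to 0.065, MRPS30 from -0.094 to 0.065, MRPL36 from -0.119 to 0.063 and MRPS34 from -0.062 to 0.064. The causes were not tested.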

Other observations

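The summed CPM of the 38 large subunit genes was 2.39 ± 0.131 times that of the 20 small subunit genes in the LFC group and 2.29 ± 0.123 times in the HFC group (SD, n = 8 each). The highest ratios were 2.65 in LFC replicate 4 and 2.56 in HFC replicate 5, followed by 2.47 in LFC replicate 5 and 2.42 in LFC replicate 6.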
